A study of Mus musculus with 20 samples.

Results

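Gene expression in the liver of wild-type mice was set against that in their white fat (white adipose tissue, WAT) on 1-colour Agilent whole-genome arrays, using 5 liver arrays and 5 WAT arrays chosen by their titles, which is 10 of the 20 arrays of the study. The animals were male C57BL/6 mice, 5 months old, kept for 6 weeks on a diet with 35% fat, and every array held Cy3-labelled RNA of a single sample. The other 10 arrays hold the same tissues of sg/sg mice, which carry a natural deletion in the gene of the nuclear receptor RORa, on the same diet; they are used only where the same tissue difference is read a second time. The labels do not name the fat depot, nor say whether liver and WAT samples of the same number came from the same animal. All liver arrays were read on 1 scanner and all WAT arrays on another, so tissue and scanner cannot be told apart. The text mainly describes large differences in genes that characterise the tissues, and smaller differences of list members are given as well. Ranks of the same probe within the arrays are given for some genes only, and most differences stand without them.

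Liver and white fat are the main organs of lipid handling. Hepatocytes make most plasma proteins and lipoproteins, detoxify drugs, turn ammonia into urea and release glucose and ketone bodies, under a set of transcription factors that includes HNF4. White adipocytes store triglyceride in a single large droplet coated by perilipin, take up fatty acids through lipoprotein lipase and secrete hormones such as adiponectin and leptin, under PPARg and C/EBP factors. Both organs are mixtures: liver also holds Kupffer cells, sinusoidal endothelium and stellate cells, and fat also holds fibroblasts, macrophages, vessels and, in visceral depots, a mesothelial covering.

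The tissue labels were checked on 4 marker genes, Alb and Apoa1 for hepatocytes and Adipoq and Plin1 for adipocytes. The letters below are the array probes that read 3 of them, shown because every value given for these genes is the brightness of a spot of that 60-base probe. The array design places the Alb probe at chr5:90443687-90443746, the Apoa1 probe at chr9:46187961-46188020 and the Adipoq probe at chr16:22816125-22816184, all on the plus strand of mouse build mm7, whose gene annotation was not used here.
Alb: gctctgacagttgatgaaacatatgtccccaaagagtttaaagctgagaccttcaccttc
Apoa1: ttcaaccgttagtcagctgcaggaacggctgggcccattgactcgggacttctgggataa
Adipoq: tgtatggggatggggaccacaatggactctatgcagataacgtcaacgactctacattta

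Levels are log2 of the processed signal after division by each array's 75th percentile, so that 0 is a spot as bright as the 75th percentile of its array. Alb, the main plasma protein, had liver levels of 9.51, 9.19, 9.50, 9.27 and 9.64 on replicates 1 to 5 and WAT levels of -1.42, -3.39, 2.32, -1.17 and -2.01. The spot was saturated on all 5 liver arrays, where it ranked 4 to 7 among 41174 probes, against ranks 3868 to 20300 in WAT, so the tissue difference is a lower bound of at least 1506-fold (adjusted p = 8.69e-07, limma). The tissues did not overlap, and WAT replicate 3 lay above the other WAT arrays. Apoa1, the structural protein of high-density lipoprotein, stood at 8.18, 7.63, 8.49, 8.06 and 8.35 in liver and at -5.78, -7.08, -1.99, -5.31 and -6.62 in WAT, with ranks 54 to 136 in liver and 15757 to 31203 in WAT. Its liver minus WAT difference was 13.50 ± 0.82 (log2, SE, n = 5 per tissue), and WAT replicate 3 was again the highest fat array. Without that array the difference was 14.34 for Apoa1, and for Alb, again a lower bound, 11.42.

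Adipoq, which encodes the adipocyte hormone adiponectin, had WAT levels of 7.17, 6.50, 7.05, 6.95 and 7.07 and ranked 27 to 61 there. On the liver arrays it read -6.41, -6.75, -6.34, -5.92 and -5.51 and was not well above background on any of them, which gives a level at least 5244-fold higher in WAT (adjusted p = 2.04e-11). Plin1, the perilipin of the large adipocyte droplet, stood at 6.58, 5.95, 6.55, 6.50 and 6.26 in WAT, ranks 69 to 173. It too was not well above background on any liver array and was at least 3504-fold higher in WAT (adjusted p = 3.81e-10). A fold written as "at least" replaces the dim tissue by the lowest signal that counted as well above background on each array. The 4 markers thus matched the tissue labels on all 10 arrays.

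**Figure D1:**
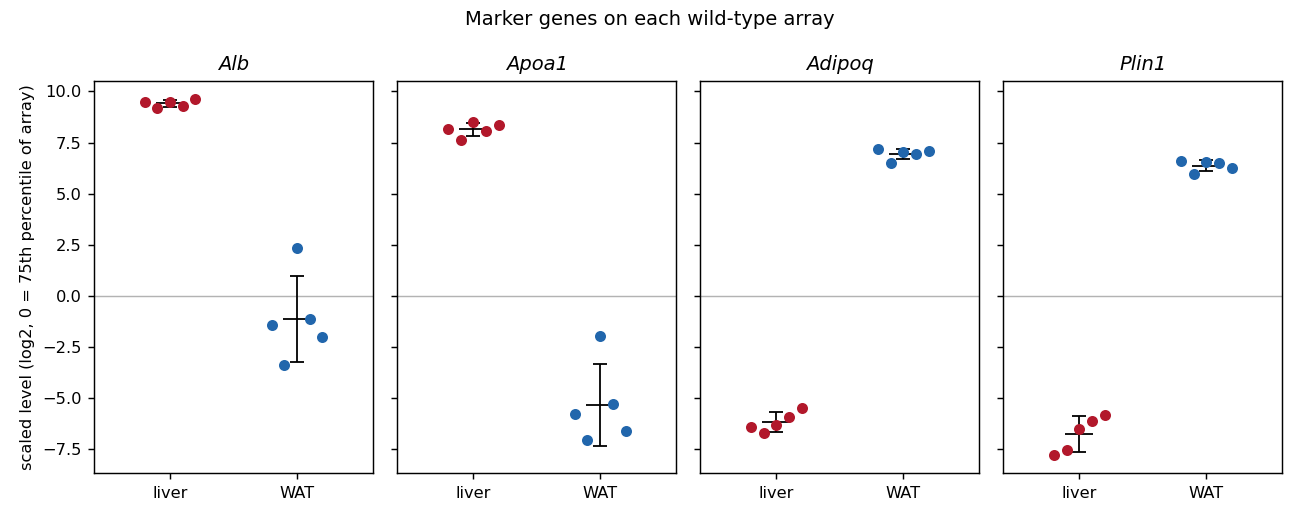
Scaled log2 level (0 is the array's 75th percentile) of Alb, Apoa1, Adipoq and Plin1 on each of the 5 liver and 5 WAT arrays, with the mean and SD of each tissue in black. The tissues do not overlap for any of the 4 genes, and WAT replicate 3, the middle WAT point, stands highest in fat for Alb (2.32) and Apoa1 (-1.99).

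The 75th percentile of the signal was 817 to 1090 in liver and 1936 to 2598 in WAT, and 56.5% to 62.4% of probes were well above background on the liver arrays against 75.3% to 81.1% on the WAT arrays. The lowest level that counted as well above background lay between -5.89 and -4.82 in liver and between -8.32 and -8.08 in WAT, so fat arrays resolved lower levels than liver arrays did. A gene dim in both tissues could therefore read higher in liver on the scaled log2 axis, and differences of genes with no array well above background in a tissue are given as bounds or left as counts. Replicate arrays correlated at 0.9865 to 0.9932 within liver and 0.9703 to 0.9935 within WAT, against 0.7551 to 0.7970 between the tissues (Pearson's r over features tested, which are not independent). The first principal component, with 91.6% of the variance, separated liver arrays from WAT arrays, and so tissue together with scanner. The p-values measure the spread between these samples, which the study's design text describes as 5 mice per genotype, and in bulk tissue fewer cells of a type and less RNA per cell cannot be told apart.

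Of 21665 features tested (18262 named genes and 3403 probes without a gene name), 17013 or 78.5% passed an adjusted p of 0.05, with 42.8% of features higher in liver and 35.7% higher in WAT. Liver took 54.5% of the calls, a share that was 16.7% without scaling between arrays, where the median difference moved by -1.29, and 68.4% with another background correction, where it moved by 0.44. With so many calls a pass says little about a gene, and the description rests on differences of at least 8-fold (3 on the log2 scale) that also passed. Those numbered 3233, or 14.9% of features: 6.72% were at least 8-fold higher in liver and 8.20% at least 8-fold higher in WAT. Counts of 8-fold differences use the fitted difference. They can therefore include a gene whose lower bound is under 8-fold because it was not above background in 1 tissue. Every list count below is to be set beside these shares and the 42.8% and 35.7% of features that passed toward liver and WAT. The median difference over all features tested was 0.13, and 0.62 when the filter on dim probes was left out, which is the value to set beside the medians of gene lists given for every member on the array.

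**Figure D2:**
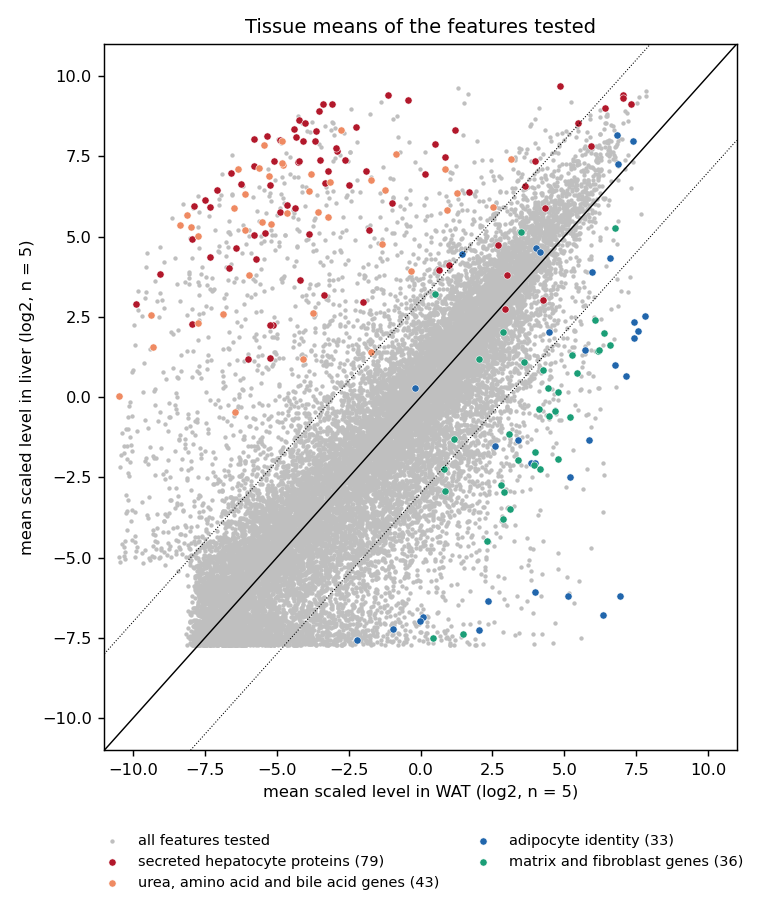
Mean scaled log2 level in WAT (x axis) and in liver (y axis), n = 5 arrays per tissue, for the 21665 features tested in grey, with tested list members in colour. The solid line marks equal levels and the dotted lines a difference of 3, or 8-fold. Hepatocyte genes fill the upper left and adipocyte and matrix genes the lower right.

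Plasma protein genes of the hepatocyte were higher in liver. Of 30 genes listed 29 were on the array and tested, all 29 were higher in liver and 26 by at least 8-fold, against 42.8% and 6.72% of all features. The median difference of the 29 was 10.50. Fga, the fibrinogen alpha chain, differed by 13.83 ± 0.83, from liver levels of 5.63 to 6.17 to WAT levels of -8.27, -8.46, -4.51, -8.06 and -10.14, and was well above background on 1 of the 5 WAT arrays. Serpina6, the corticosteroid-binding globulin, differed by 13.64 ± 0.74 and Plg, plasminogen, by 13.58 ± 0.72. Ttr, which carries thyroid hormone and retinol-binding protein, differed by 12.89 ± 0.63. Serpina6 and Ttr too were well above background on 1 of 5 WAT arrays, Plg on all 5. Replicate 3 was the highest WAT array for each of them, and without it the differences were 14.68 for Fga, 14.45 for Serpina6, 14.32 for Plg and 13.56 for Ttr. For Fga, Serpina6 and Ttr these values rest mostly or wholly on WAT signals not well above background, so their size is not read. The same holds below for C8b, Nr1i3, Slc10a1, Baat and Otc without WAT replicate 3.

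The 3 plasma protein genes under 8-fold were bright in both tissues. Rbp4, the retinol carrier that fat also secretes, stood at 8.97, 8.77, 9.16, 8.86 and 9.27 in liver and 6.73, 5.64, 6.65, 6.44 and 6.54 in WAT, a difference of 2.60 ± 0.20, with ranks 18 to 22 in liver and 58 to 253 in WAT. Hp, haptoglobin, differed by 1.80 ± 0.11 and ranked 10 to 19 in liver and 10 to 14 in WAT. Orm1, an acute-phase glycoprotein, differed by 2.06 ± 0.28. In scaled level all 3 were nonetheless higher in liver on every array. The ranks of Hp overlap between the tissues, and its difference is near that of several genes used in most cells (below). No direction is therefore read for Hp.

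Genes of lipoproteins and their handling followed the same pattern, with 20 of 20 listed genes higher in liver, 17 of them by at least 8-fold, and a median difference of 10.13. Apob, the scaffold of very-low-density lipoprotein, stood at 6.52, 6.16, 6.52, 6.58 and 6.48 in liver and at -7.14, -8.13, -4.70, -6.49 and -8.87 in WAT, a difference of 13.52 ± 0.65. Apof, a lipid transfer regulator, averaged 7.21 ± 0.13 in liver and -5.79 ± 1.77 in WAT (SD, n = 5). Apoa5, which raises triglyceride clearance, differed by 12.87 ± 0.64. With WAT replicate 3 left out, the differences of Apob, Apof and Apoa5 were 14.11, 13.76 and 13.53. Apoe, the ligand for remnant uptake, was bright in both tissues, at ranks 5 to 8 in liver and 22 to 29 in WAT, and differed by 2.34 ± 0.10. Scarb1, the high-density lipoprotein receptor, differed by 0.80 ± 0.13.

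Coagulation and complement genes were listed with 30 members, all tested, of which 28 were higher in liver, 25 by at least 8-fold, and the median difference was 10.31. Mbl2, a mannose-binding lectin that starts complement, had liver levels of 7.87, 8.15, 8.08, 7.97 and 8.19 and WAT levels of -6.59, -7.08, -2.78, -6.22 and -6.33, a difference of 13.85 ± 0.69. C8a, a subunit of the membrane attack complex, differed by 13.26 ± 0.83, F12, the contact factor of coagulation, by 12.89 ± 0.57 and C8b by 12.88 ± 0.77. In fat, C8a was well above background on 3 of 5 arrays and C8b on 1. Leaving out WAT replicate 3 gave 14.60 for Mbl2, 14.10 for C8a, 13.49 for F12 and 13.58 for C8b.

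Cfp, properdin, a complement regulator made by myeloid cells, was the exception and was higher in WAT, with liver levels of 3.46, 2.65, 3.30, 2.59 and 3.11 against 4.58, 4.03, 4.28, 4.05 and 4.36 (difference -1.24 ± 0.19, adjusted p = 0.000132). It did not pass against a minimum change of 2-fold. Pros1, protein S, did not pass the test, at -0.20 ± 0.10. Some complement genes were bright in fat as well, of which C3, Cfb and C2 were singled out after their values were seen. C3 ranked 7 to 13 in liver and 16 to 40 in WAT and differed by 2.26 ± 0.12, Cfb by 1.89 ± 0.10 and C2 by 1.57 ± 0.19.

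All 18 listed transcription factors of the hepatocyte were tested and passed toward liver, 15 of them by at least 8-fold, with a median difference of 8.54. Nr1i3, the xenobiotic receptor CAR, differed by 12.19 ± 0.62, and by 12.80 without WAT replicate 3. Foxa2, a pioneer factor, differed by 11.95 ± 0.46 and Nr1i2, the xenobiotic receptor PXR, by 11.88 ± 0.61. Nr1i3 was well above background on 1 WAT array and the other 2 on 2. Foxa3, a related pioneer factor, stood at 1.66, 0.68, 1.73, 1.70 and 1.67 in liver, was not well above background on any WAT array, and was at least 819-fold higher in liver.

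Hnf4a, a nuclear receptor that acts on many hepatocyte genes, was well above background on all WAT arrays at low levels. It read -6.32, -3.19, -6.70, -6.75 and -7.85 on WAT replicates 1 to 5. WAT replicate 2 was the highest, and the tissue difference was 9.79 ± 0.71, or 10.53 without that array. The 3 factors under 8-fold were Cebpa at 0.58 ± 0.13, Gata4 at 1.92 ± 0.14 and Hhex at 2.24 ± 0.18. Cebpa, which acts in adipocytes as well as hepatocytes, had ranks of 1351 to 1638 in liver and 1073 to 1635 in WAT. Its difference lies below the median of 0.62 over all features, and no direction is read from it.

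Promoter letters were read because HNF4, the factor encoded by Hnf4a, has a well-defined recognition sequence. The windows below hold its letters CAAAGTCCA, in capitals, and are shown since they are the 2 of the listed genes at least 8-fold higher in liver with a match before the RefSeq start site (GRCm38.p6). Cyp8b1, a sterol hydroxylase of bile acid synthesis, has its window at chr9:121916339-121916397 on the minus strand, and Cyp3a11, a cytochrome P450 of drug oxidation, at chr5:145879930-145879988 on the minus strand.
Cyp8b1: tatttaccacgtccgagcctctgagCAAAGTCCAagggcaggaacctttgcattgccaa
Cyp3a11: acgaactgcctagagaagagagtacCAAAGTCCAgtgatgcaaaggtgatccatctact

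Counted from the start site, the last base of the match is at -59 in Cyp8b1 and at -101 in Cyp3a11. Cyp8b1 stood at 2.09, 3.39, 2.55, 2.46 and 2.34 in liver and at -10.02, -9.27, -8.26, -9.04 and -10.25 in WAT, not well above background on any WAT array, and was at least 1727-fold higher in liver. Cyp3a11 stood at 5.48, 6.06, 6.09, 5.29 and 6.60 in liver and at -4.92, -4.99, -4.27, -5.08 and -5.10 in WAT, a difference of 10.78 ± 0.26. The tissues did not overlap for either gene. Within 250 bases before to 50 after the start site, the HNF4 letters were found in 24 of 888 genes at least 8-fold higher in liver for which the table holds a promoter, or 2.70%, against 0.638% of the 12385 genes tested, 0.555% of all 27025 genes in the table and 0.535% of the 1121 genes at least 8-fold higher in WAT. The 6 genes of the last set were Acsbg1, Fhl1, Gpnmb, Gpr183, Ptpn22 and Reep1. Among the list genes at least 8-fold higher in liver, 3 of 149 with a promoter held a match, the third being Sult1b1, where it lies after the start site. No match was found in the promoters of 20 plasma protein, 24 coagulation and complement, 13 lipoprotein or 22 adipocyte identity genes. The EBF letters TCCCNNGGG were found in 134 of 1121 genes higher in WAT, 9.46% of those higher in liver, 9.19% of genes tested and 7.48% of the table. The TATA letters TATAAA stood in 19.4%, 13.9%, 11.5% and 15.7% of genes higher in liver, higher in WAT, tested and in the table. The C/EBP letters TTGCGCAA were found in 0.113%, 0.357%, 0.307% and 0.207% of the same sets, and the PPAR-RXR letters AGGTCANAG in 3.15%, 1.78%, 1.99% and 2.31%. Both strands were searched, matches of different motifs overlapped at 7 places among all promoters, and a match is a description of letters, not of binding.

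Bile acid genes were at least 8-fold higher in liver in 18 of 18 cases, with a median difference of 9.92. Slc10a1, the sodium-dependent uptake carrier of the hepatocyte, stood at 5.51, 5.21, 5.48, 5.45 and 5.17 in liver and at -9.17, -10.52, -5.12, -8.34 and -8.72 in WAT, a difference of 13.74 ± 0.81. Baat, which conjugates bile acids to amino acids, differed by 13.28 ± 0.67. Slco1b2, another uptake carrier, differed by 12.83 ± 0.76, and Slc27a5, which activates bile acids with coenzyme A, by 12.79 ± 0.66. Slc10a1 and Baat were well above background on 1 WAT array. Without WAT replicate 3 the 4 values were 14.55, 14.02, 13.59 and 13.48. Cyp7a1, the rate-limiting enzyme of bile acid synthesis, differed by 10.87 ± 0.51.

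All 25 genes of the urea cycle and amino acid breakdown were at least 8-fold higher in liver, with the highest list median, 10.59. Otc, a mitochondrial urea cycle enzyme, had liver levels of 5.83, 5.55, 5.54, 5.68 and 5.81 and WAT levels of -8.39, -10.22, -4.83, -8.52 and -8.61, with 1 WAT array well above background, and differed by 13.79 ± 0.80. Mat1a, which makes S-adenosylmethionine in liver, differed by 13.45 ± 0.68, Bhmt, which remethylates homocysteine, by 13.31 ± 0.65 and Sds, serine dehydratase, by 12.74 ± 0.34. Without WAT replicate 3, the values of Otc, Mat1a and Bhmt were 14.62, 14.19 and 14.02. Arg1, the last step of the urea cycle, which macrophages also use, was steady in fat at -1.23, -1.21, -1.53, -1.19 and -1.06 and differed by 7.71 ± 0.13. WAT replicate 3, the highest fat array for Otc, was the lowest for Arg1.

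Among xenobiotic-metabolising genes 23 of 25 listed were on the array, all 23 were higher in liver and 21 by at least 8-fold, with a median difference of 10.15. Ugt2b5, a glucuronosyltransferase, differed by 13.01 ± 0.63 (13.69 without WAT replicate 3). Cyp1a2, a cytochrome P450 of drug oxidation, had liver levels of 5.06, 3.92, 4.59, 4.80 and 4.87 and differed by 12.35 ± 0.43. Ugt1a1, which conjugates bilirubin, differed by 12.31 ± 0.39. Sult1b1, a sulfotransferase, averaged 3.51 ± 0.14 in liver and -8.49 ± 1.58 in WAT (SD, n = 5). In WAT they were well above background on 3, 2, 1 and 2 arrays respectively. Cyp and Ugt families hold near-identical copies that a probe may not separate, so single members are uncertain. The 2 under 8-fold were Gstm1, a glutathione transferase that is bright in both tissues, at 1.86 ± 0.13, and Sult1a1 at 2.50 ± 0.20.

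Genes of glucose output and ketone body synthesis were all higher in liver (16 of 16), 12 by at least 8-fold, with a median difference of 7.77. Gckr, a regulatory protein of hepatic glucose use, differed by 11.49 ± 0.34 and Fbp1, a gluconeogenic phosphatase, by 9.60 ± 0.53. Fbp1 read 1.29 on WAT replicate 2 and -1.97 to -1.06 on the other WAT arrays. The 4 below 8-fold were Gys2 at 2.89 ± 0.19, Pck1 at 1.87 ± 0.27, Ppargc1a at 1.45 ± 0.20 and Pcx at 0.94 ± 0.13. Pck1 makes glucose precursors in liver and glycerol backbones in fat, and ranked 168 to 312 in liver and 210 to 811 in WAT.

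Liver-secreted hormones and growth hormone axis genes were higher in liver in 16 of 16 cases, 11 by at least 8-fold, with a lower median of 4.27. Hamp, hepcidin, the regulator of iron export, stood at 6.47, 5.77, 6.24, 6.37 and 6.64 in liver and at -7.65, -9.86, -2.97, -6.68 and -7.58 in WAT, a difference of 13.25 ± 1.02 that was 14.24 without WAT replicate 3 and 12.52 without WAT replicate 2. Ambp, which encodes alpha-1-microglobulin and bikunin, differed by 12.20 ± 0.77, or 13.02 without WAT replicate 3. Lect2 differed by 10.54 ± 0.18 and Inhbc, an activin subunit, by 9.92 ± 0.21. Igfbp1, an insulin-repressed binding protein, read -1.20 on WAT replicate 2 and -7.16 to -5.86 on the other fat arrays, and its difference of 9.51 ± 1.04 was 10.59 without that array. The 5 under 8-fold were Fgl1, Igf1, Selenop, Ghr and Igfals, between 2.73 and 1.02.

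Adipocyte identity genes ran the other way with exceptions. All 33 listed were tested: 26 were higher in WAT, 23 of them by at least 8-fold, against 35.7% and 8.20% of all features, 6 were higher in liver, 1 did not pass, and the median difference was -5.50. After Plin1 and Adipoq came Sncg, synuclein gamma, with WAT levels of 5.31, 4.46, 5.16, 5.29 and 5.37 and a difference of -11.31 ± 0.32. Trarg1, a partner of the insulin-responsive glucose transporter, stood at 4.03, 3.56, 4.12, 4.08 and 4.18 in WAT and differed by -10.07 ± 0.22. Sncg and Trarg1 were well above background on 1 liver array each. WAT replicate 2 had the lowest fat value of all 4, and for the list as a whole it read 0.53 below the median of the other WAT arrays (log2, median over the 33 genes) with no gene highest there.

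Pparg, the receptor that drives fat cell formation, was higher in WAT by less than 8-fold, at -2.44 ± 0.25. Pnpla2, the first lipase of lipolysis, at -2.09 ± 0.11 also passed below 8-fold. Dgat2, Agpat2 and Gpd1, enzymes of triglyceride synthesis, were at 0.60 ± 0.11, 0.60 ± 0.10 and 0.42 ± 0.12, below the median of 0.62 over all features, and no direction is read from differences of this size. Dgat2 ranked 100 to 110 in liver and 10 to 15 in WAT. G0s2, an inhibitor of Pnpla2, did not pass, at 0.34 ± 0.22. Pde3b, which mediates the antilipolytic action of insulin, was at 0.45 ± 0.14.

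Klf15, a transcription factor of amino acid and lipid metabolism, stood on the edge of the 8-fold rule toward liver, at 3.01 ± 0.28, with WAT levels of 1.29, 0.33, 2.09, 1.75 and 1.75. It fell short of 8-fold when liver replicate 1, WAT replicate 1 or WAT replicate 2 was left out. Car3, a carbonic anhydrase abundant in fat, ranked 65 to 126 in liver and 30 to 141 in WAT. Its difference of 1.31 ± 0.20 turned to -0.36 under quantile normalization and was 0.02 without scaling, so its direction is not settled by these arrays.

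Hormones and other secreted factors of fat were mixed. All 19 listed were tested: 12 were higher in WAT, 8 by at least 8-fold, 4 were higher in liver, 3 did not pass, and the median difference was -2.15. Lep, leptin, had WAT levels of 5.63, 4.97, 5.73, 5.88 and 5.66, ranks 205 to 536, was not well above background on any liver array and was at least 2030-fold higher in WAT. Retn, resistin, stood at 5.61, 3.72, 5.78, 5.42 and 5.30 in WAT, with replicate 2 lowest, and differed by -11.29 ± 0.60, with 1 liver array well above background. Sfrp5, a secreted Wnt inhibitor, differed by -6.55 ± 0.23 and was well above background on 3 liver arrays.

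Agt, angiotensinogen, went toward liver at 4.18 ± 0.12, with ranks 175 to 239 in liver and 1871 to 2556 in WAT. Besides Agt and Rbp4, the members that passed toward liver were Rarres2, chemerin, at 1.49 ± 0.12 and Nampt at 0.55 ± 0.21. The value of Nampt lies below the median of 0.62 over all features, and no direction is read from it. Il6 at -0.28 ± 0.17, Lcn2 at 0.01 ± 0.69 and Vegfa at 0.06 ± 0.23 did not pass, and Lcn2 was at 0.65 without WAT replicate 2. Cfd, adipsin, a complement protease of the adipocyte, was higher in WAT (-4.93 ± 0.67, or -4.31 without liver replicate 1).

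Thermogenic genes of brown and beige fat showed no common direction. Of 13 on the array 11 were tested, 6 were higher in WAT, 5 of them by at least 8-fold, 4 were higher in liver, 2 of them by at least 8-fold, and the median over the 13 was 0.92. Of all features 35.7% were higher in WAT and 42.8% in liver, 8.20% and 6.72% by at least 8-fold. Ucp1, the uncoupling protein, was low in WAT at -4.74, -2.02, -6.12, -4.83 and -3.74, ranks 16207 to 26675, was not well above background in liver, and was at least 2.18-fold higher in WAT. It counts among the 5 only by its fitted difference of -3.35. Under another background correction Ucp1 read -0.22 and did not pass. Cox8b, a cytochrome oxidase subunit of muscle and brown fat, differed by -6.13 ± 0.14 and Prdm16, a brown fat regulator, by -3.77 ± 0.19. Dio2, the thyroid hormone activating deiodinase, differed by -5.24 ± 0.65, or -5.88 without liver replicate 5. Elovl3, a fatty acid elongase that hepatocytes also make, was higher in liver by 8.28 ± 0.73 (8.92 without WAT replicate 2). Eva1a, the other member at least 8-fold higher in liver, stood at 6.42 ± 0.17. Its place among thermogenic genes is uncertain, so the counts toward liver include a doubtful member.

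Matrix and fibroblast genes were higher in WAT in 34 of 36 cases, 29 by at least 8-fold, with a median difference of -4.72. Liver replicate 2 was the highest liver array for 26 of the 36, by a median of 0.68 over the other liver arrays. Mfap5, a microfibril protein, stood at 1.48, 1.59, 1.82, 0.89 and 1.66 in WAT, was not well above background in liver and was at least 120-fold higher in WAT. Lox, the collagen crosslinking oxidase, was at least 57.8-fold higher in WAT on the same terms. Pi16, a marker of fat progenitors, differed by -6.82 ± 0.23 and Mgp, matrix Gla protein, by -6.72 ± 0.29. Col6a1, a collagen VI chain, differed by -6.41 ± 0.28, Col1a1 by -4.70 ± 0.47 and Col3a1 by -3.68 ± 0.38. Dpp4 at 2.70 ± 0.22 and Fn1, fibronectin, which hepatocytes secrete into plasma, at 1.65 ± 0.20 went toward liver, and Fn1 was 0.35 and did not pass without scaling.

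Genes of the mesothelium that covers visceral fat were at least 8-fold higher in WAT in 12 of 14 cases, with a median difference of -4.34. Lrrn4 stood at 0.25, -1.29, -0.56, -0.46 and 0.64 in WAT and was at least 34.9-fold higher there, with no liver array well above background. Upk1b, a uroplakin, differed by -6.01 ± 0.58, Cldn15 by -5.37 ± 0.09 and Rspo1, a Wnt amplifier, by -5.14 ± 0.30. Replicate 5 was the highest WAT array for 12 of the 14 genes, by a median of 1.16, and liver replicate 5 was the highest liver array for 12 of the 14, by a median of 1.0. Krt18 and Krt8, keratins of hepatocytes as well as mesothelium, were the other members, at 5.90 ± 0.38 and 5.38 ± 0.38 toward liver.

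Hox genes, which record the position of a tissue along the body, were detected mainly in fat. Of 39 listed 38 were on the array and 28 tested: 20 were higher in WAT, 13 by at least 8-fold, 2 were higher in liver, 6 did not pass, and the median over the 38 was -0.88. Hoxa7 had WAT levels of 1.93, 1.82, 2.47, 2.43 and 2.52 and was at least 191-fold higher in WAT. Hoxc6 was at least 86.5-fold higher, Hoxc9 at least 78.8-fold and Hoxd4 at least 27.9-fold. None of these 4 was well above background on any liver array. Hoxc4 went the other way at 2.53 ± 0.14, from -1.14 to -0.83 in liver and -3.93 to -3.20 in WAT, and Hoxd12 at 1.07 ± 0.26 was near background in liver and read -0.22 without scaling. Of the 38, 28 were well above background on all WAT arrays and 8 on all liver arrays. A gene was tested if it was well above background in either tissue, so many members could enter through WAT alone. The counts toward WAT are therefore not read as a trait of the list. The liver probe floor, higher than that of WAT, bears on all low Hox values.

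**Figure D3:**
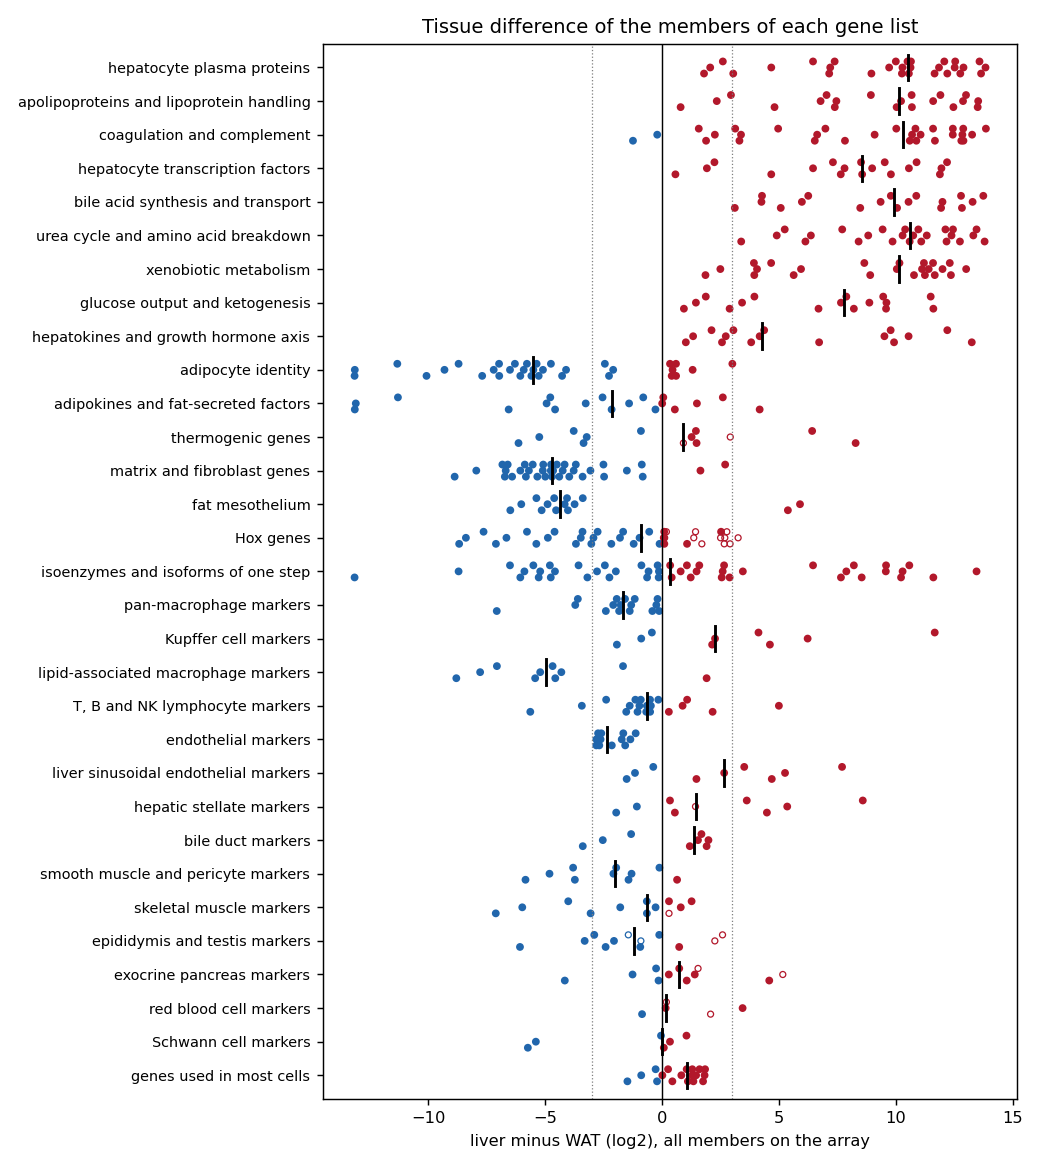
Liver minus WAT difference (log2) of every list member on the array, 1 row per gene list, red toward liver and blue toward WAT, with open circles for members too dim to be tested and a bar at the median of all members on the array. Dotted lines mark 8-fold. The 9 lists of hepatocyte functions have medians right of the 8-fold line, with single members left of it, while adipocyte, matrix and mesothelial lists have medians of -5.50, -4.72 and -4.34.

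Many metabolic steps are carried out by different isoenzymes in the 2 tissues, and 47 such genes were listed and tested. In liver 22 were higher, 13 by at least 8-fold, in WAT 19 were higher, 13 by at least 8-fold, 6 did not pass, and the median was 0.35. The shares higher in each tissue lie near those of all features (42.8% in liver and 35.7% in WAT), and 6.72% and 8.20% of all features were at least 8-fold higher. In glucose uptake, Slc2a2, the high-capacity transporter GLUT2, stood at 4.26, 4.84, 4.70, 4.46 and 4.65 in liver and -4.39 to -3.34 in WAT (8.20 ± 0.20), and Slc2a4, the insulin-responsive GLUT4, at 4.24, 2.87, 4.41, 4.33 and 4.08 in WAT and -3.29 to -0.47 in liver (-6.06 ± 0.55). Of the hexokinases, Hk2 was higher in WAT (-4.79 ± 0.22) and Hk1 also (-2.78 ± 0.12). Pyruvate kinase was split between Pklr in liver (7.65 ± 0.48) and Pkm in WAT (-4.57 ± 0.17). The aldolase Aldoa was higher in WAT, at -1.97 ± 0.11.

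Glycogen synthase showed Gys1 at -4.75 ± 0.18 and Gys2 at 2.89 ± 0.19, and glycogen phosphorylase showed Pygl at 2.60 ± 0.19 and Pygm at least 3.25-fold higher in WAT, with no liver array well above background. Of the lactate dehydrogenases Ldhb was higher in WAT (-3.19 ± 0.20). Ldha was at 1.23 ± 0.08, near the median of 1.08 over genes used in most cells (below), and is not read as a liver form. Gls2, an enzyme of glutamine breakdown, was higher in liver (10.29 ± 0.19). Mat1a differed by 13.45 ± 0.68, while Mat2a, the form used outside liver, differed by -0.64 ± 0.09.

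In lipid handling, the fatty acid binding proteins were Fabp1 in liver and Fabp4 in WAT. Fabp1 stood at 8.74, 8.57, 8.93, 8.82 and 9.09 in liver, ranks 25 to 31, and at -2.59, -3.67, 1.52, -1.27 and -2.71 in WAT, a difference of 10.58 ± 0.81 that was 11.39 without WAT replicate 3. Fabp4 stood at 8.05, 7.60, 7.78, 7.71 and 7.90 in WAT, ranks 2 to 3, and at 2.34, 3.48, 2.42, 2.18 and 2.27 in liver, a difference of -5.27 ± 0.23 with liver replicate 2 highest. Fabp5, the epidermal form, differed by -5.21 ± 0.36. For lipases of the vessel wall, Lipc differed by 10.22 ± 0.25 and Lpl by -6.50 ± 0.19, with Lpl at ranks 16 to 25 in WAT.

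For glycerol channels, Aqp9 was higher in liver by 8.54 ± 0.19 and Aqp7 higher in WAT (-8.69 ± 0.73, or -9.42 without liver replicate 3), and glycerol kinase, Gk, was higher in liver by 3.46 ± 0.18. Among droplet proteins of the CIDE family Cideb was higher in liver by 9.57 ± 0.49 and Cidec higher in WAT (-5.50 ± 0.69), while Cidea did not pass (1.48 ± 0.85). Cidec read 0.03, 4.63, 2.57, 1.57 and 1.47 on liver replicates 1 to 5, with replicate 2 highest, and its difference was -6.14 without that array. Cidea read 5.82 on the same liver array, and its difference was 0.63 without it. Scd2, a stearoyl-CoA desaturase, was higher in WAT (-5.88 ± 0.17), whereas Scd1 did not pass (-0.13 ± 0.39). Among synthesis enzymes Acaca, Acacb and Hmgcs1 did not pass, at -0.57, -0.14 and -0.18. Cpt1a differed by 2.55 ± 0.13 and Cpt1b, the muscle form, did not pass, at 0.35 ± 0.16. Of the lipid-sensing receptors Ppara was higher in liver by 6.46 ± 0.13.

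**Figure D4:**
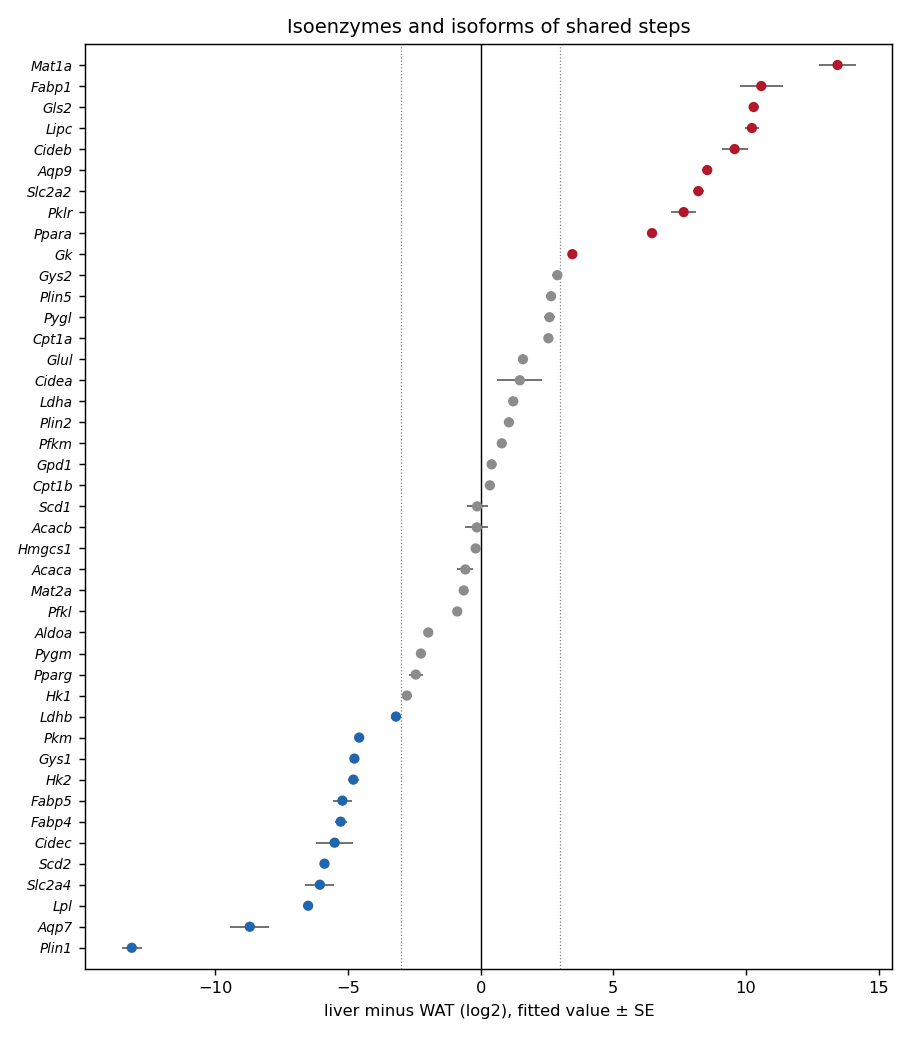
Liver minus WAT difference (log2, fitted value with SE, n = 5 arrays per tissue) of 43 of the 47 isoenzymes and isoforms, coloured where the gene passed and differed by at least 8-fold and grey otherwise, with dotted lines at 8-fold. Of the coloured genes 10 lie on the liver side, up to Mat1a at 13.45, and 12 on the WAT side, where the fitted value of Plin1 rests on liver signals not above background.

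General macrophage markers were higher in WAT in 12 of 16 cases, 3 of them by at least 8-fold, 4 did not pass, and the median difference was -1.67. Itgam, the integrin CD11b, stood at 0.59, 0.61, -0.11, -0.15 and 0.24 in WAT, was not well above background in liver and was at least 50.1-fold higher in WAT. Laptm5, a lysosomal protein of blood cells, differed by -3.71 ± 0.19 and Cd68, a macrophage lysosomal protein, by -3.60 ± 0.33. Adgre1, the macrophage antigen F4/80, differed by -1.83 ± 0.29. Mpeg1, Fcgr1, Aif1 and Cd163 did not pass, between -0.41 and -0.12.

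Genes of lipid-associated macrophages, which gather around dying fat cells in obesity, were higher in WAT in 9 of 10 cases, 8 by at least 8-fold, with a median difference of -4.94. Gpnmb stood at 4.19, 5.27, 2.56, 2.56 and 2.97 in WAT and at -5.74, -1.99, -6.88, -5.82 and -5.97 in liver, a difference of -8.79 ± 0.90 (-9.61 without liver replicate 2). The matrix protease Mmp12 differed by -7.77 ± 0.69, the cathepsin Ctsk by -7.06 ± 0.40, and Itgax, the integrin CD11c, by -5.42 ± 0.42. Gpnmb and Mmp12 were well above background on 1 liver array. Trem2, the lipid receptor of these cells, differed by -4.68 ± 0.46. Spp1, osteopontin, which bile duct cells also make, was higher in liver, at 1.91 ± 0.58 and at 2.51 without WAT replicate 2. Replicate 2 was the highest WAT array for 10 of 10 of these genes, by 1.90 over the median of the others (log2, median over genes), and liver replicate 2 the highest liver array for 8 of 10.

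Kupffer cell genes, by contrast with general macrophage markers, had a median difference of 2.27, with 6 of 9 higher in liver, 4 by at least 8-fold, and 3 higher in WAT. Clec4f, a lectin of Kupffer cells, stood at 4.26, 3.74, 4.30, 3.92 and 4.12 in liver and at -7.30, -8.14, -6.06, -8.29 and -8.18 in WAT, where 2 arrays were well above background, and differed by 11.66 ± 0.40. Cd5l, a secreted macrophage protein, differed by 6.23 ± 0.18, Vsig4, a complement receptor, by 4.62 ± 0.31 and Slc40a1, the iron exporter ferroportin, by 4.13 ± 0.19. Folr2 at -1.93 ± 0.20, Hmox1 at -0.89 ± 0.22 and Id3 at -0.43 ± 0.16 went toward WAT.

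All 12 general endothelial markers were higher in WAT, none by 8-fold, with a median of -2.37, Pecam1 at -2.81 ± 0.17 and Kdr at -1.12 ± 0.19. The number at least 8-fold higher was 8 without scaling. Markers of sinusoidal endothelium, 9 of 10 on the array, were higher in liver in 6 cases, 4 by at least 8-fold, and higher in WAT in 2, with a median of 2.66. Clec4g, a lectin of these cells, stood at 4.73, 4.23, 3.95, 3.93 and 4.13 in liver and at -3.98 to -3.16 in WAT, a difference of 7.70 ± 0.18. Dnase1l3, a secreted nuclease, differed by 5.26 ± 0.27, Oit3 by 4.70 ± 0.45 and Stab2, the hyaluronan scavenger receptor, by 3.52 ± 0.38. Lyve1 at -1.51 ± 0.28 and Stab1 at -1.15 ± 0.16 were higher in WAT.

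Stellate cell genes were higher in liver in 5 of 8 tested, 4 by at least 8-fold, against 42.8% and 6.72% of all features. Another 2 were higher in WAT, against 35.7% of all features, and the median over the 9 on the array was 1.43. Lrat, which stores retinol as esters in these cells, read 0.42, 0.98, 0.29, 0.70 and 0.70 in liver and was well above background on 3 WAT arrays (8.59 ± 0.56). Reln differed by 5.36 ± 0.50, Colec11 by 4.49 ± 0.10 and Hand2 by 3.63 ± 0.27. Of 8 bile duct genes 3 were higher in each tissue, near the 42.8% and 35.7% of all features. WAT replicate 2 was the highest fat array for 6 of the 8, by a median of 1.58, and without it Cldn7 moved from 1.99 to 3.0 and Epcam from 1.69 to 2.69. Krt19, shared with mesothelium, was at least 8-fold higher in WAT (-3.39 ± 0.35).

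Lymphocyte markers were higher in WAT in 12 of 20 cases, 2 by at least 8-fold, and higher in liver in 4, 1 by at least 8-fold, with a median of -0.66. Of all features 8.20% and 6.72% were at least 8-fold higher in WAT and in liver, so these shares lie near the background. Il7r, the interleukin 7 receptor, differed by -5.63 ± 0.50 and Cd2 by -3.43 ± 0.38. Zap70, a kinase of the T cell receptor, was higher in liver by 5.00 ± 0.25. Cd3e, of the same receptor, was also higher in liver, by 2.17 ± 0.15. The summed scaled level of the list was 4.04 to 6.16 in liver and 3.86 to 6.02 in WAT.

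Smooth muscle and pericyte genes were higher in WAT in 8 of 10 cases, 4 by at least 8-fold, with a median of -2.02. Cspg4, the pericyte proteoglycan NG2, differed by -5.83 ± 0.16, Notch3 by -4.81 ± 0.16, Cnn1 by -3.80 ± 0.50 and Myh11 by -3.72 ± 0.24. Of 11 skeletal muscle genes tested 6 were higher in WAT, 4 by at least 8-fold in the fitted difference, against 35.7% and 8.20% of all features. The median over the 12 on the array was -0.64. Acta1, skeletal actin, stood at 2.26, 0.26, 1.65, 0.98 and 1.25 in WAT and differed by -7.10 ± 0.35, with 2 liver arrays well above background. Pvalb was at least 12.9-fold higher in WAT and Tnnc2 differed by -3.05 ± 0.31. Actn3, counted among the 4 by its fitted difference of -4.01, was shown to be only at least 3.70-fold higher in WAT. Schwann cell markers split as well, with S100b at -5.73 ± 0.32 and Mbp at -5.39 ± 0.11 the 2 of 6 higher in WAT. That share lies near the 35.7% of all features higher in WAT. S100b is also made by adipocytes.

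Genes of tissues that lie near these organs were low or uneven. Of 12 epididymis and testis genes on the array 8 were tested and 2 were higher in WAT, 1 by at least 8-fold, Spink2 (-6.07 ± 0.54, with 1 liver array well above background). Of all features 35.7% were higher in WAT, 8.20% by at least 8-fold, so these counts are not read as a trait of the list. The summed scaled level of the 12 was 0.844 to 36.6 across WAT arrays and 0.707 to 0.969 across liver arrays. The sperm protamine Prm1 read -2.20, 4.0, -0.63, 1.48 and -1.92 on WAT replicates 1 to 5, and Prm2 read -5.60, 3.93, -0.75, 0.40 and -3.67. Replicate 2 was high for both, replicate 4 next, and neither gene passed. Exocrine pancreas genes were split, with Cela1 at -4.15 ± 0.31 and Ctrc at 4.59 ± 0.43. Among red blood cell genes Alas2, the heme synthesis enzyme of erythroid cells, was higher in liver by 3.45 ± 0.21.

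Genes used in most cells served as a reference. Of 18, 13 were higher in liver and 4 in WAT, none by 8-fold, and their median difference was 1.08, from Gusb at -1.48 ± 0.23 to several near 1.8 such as Pgk1. Hprt did not pass, at 0.02 ± 0.10, and Actb and Ppia differed by 0.26 ± 0.10 and -0.21 ± 0.08. Differences of this size were not read as tissue identity. The counts of list members higher in liver above include such differences, among them those of Hp, Pcx and Scarb1.

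The fat arrays were not alike, and 2 of them stood apart. On WAT replicate 3 many hepatocyte transcripts were raised: 20 of the 29 plasma protein genes were highest there, by a median of 1.31 over the other WAT arrays, and so were 12 of 20 lipoprotein genes, 15 of 25 urea and amino acid genes and 11 of 18 bile acid genes. Highest there too were 16 of 30 coagulation and complement genes (median 0.93) and 15 of 23 xenobiotic-metabolising genes (median 0.56). The remaining hepatocyte lists moved little on that array. Transcription factors differed by a median of 0.14 (4 of 18 highest), glucose output and ketone body genes by 0.03 (2 of 16) and liver-secreted hormone genes by 0.08 (7 of 16). Glucose output and ketone body genes were highest on WAT replicate 2 in 10 of 16 cases. Adipocyte identity genes differed on WAT replicate 3 by a median of 0.08. On WAT replicate 2, which set the second principal component (-93.8, against 0.419 to 36.4 for the other fat arrays), epididymis and testis genes were higher by a median of 1.61, 8 of 12 being highest there, lipid-associated macrophage genes were the highest and adipocyte genes the lowest of the WAT arrays. The part of these arrays in the tissue differences beyond the values without them was not tested. Of the 140 genes named by rule and given here, 36 moved by over 1.5-fold in their difference when 1 array was left out, 31 of them with WAT replicate 3, and all 31 differed more from liver without it. For those with only 1 WAT array well above background, the size of that move is not read.

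**Figure D5:**
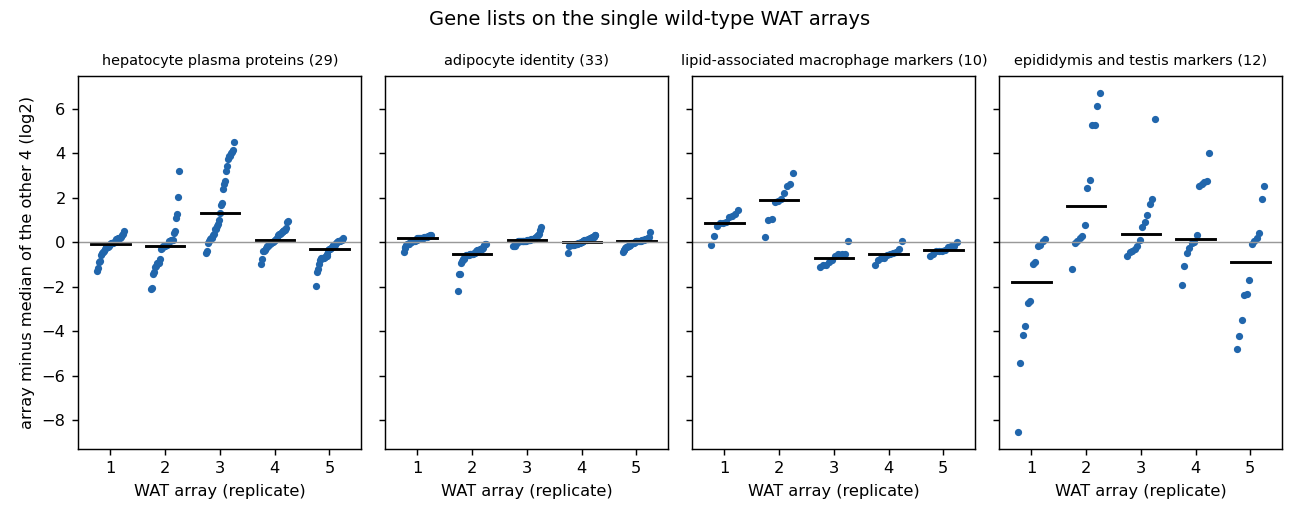
Level on each WAT array minus the median of the other 4 WAT arrays (log2), 1 point per gene on the array, with the median over genes as a bar, for 4 gene lists. Plasma protein genes stand higher on replicate 3 (median 1.31), and adipocyte genes lower (-0.53) and lipid-associated macrophage and epididymis and testis genes higher (1.90 and 1.61) on replicate 2.

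Over the whole array the 10 largest fitted differences in each direction were also read. Toward liver the 10 included Cyp3a25, a cytochrome P450, with a fitted difference of 14.25 ± 0.88. Its levels were 5.94, 5.96, 6.06, 5.88 and 6.18 in liver and -8.23, -10.51, -4.85, -7.87 and -9.81 in WAT, where 2 arrays were well above background. The order of the 10 toward liver is not read, since WAT signals of members such as Cyp3a25, Fga and Otc were mostly not well above background. Among named genes Ugt2a3, a glucuronosyltransferase, stood at 14.01 ± 0.85, Pzp, a protease inhibitor of the alpha-2-macroglobulin family, at 13.85 ± 0.80 and Cyp2a12 at 13.82 ± 0.78. Without WAT replicate 3 these were 15.11, 14.84, 14.69 and 14.54. Without WAT replicate 5, Ugt2a3 was 13.39 and Cyp2a12 13.23. These families hold near-identical copies, so single members are uncertain. Also among the 10 were Fga, Mbl2 and Otc (given above) and the unnamed probes A_51_P262699 and A_52_P14506 at 14.22 ± 0.95 and 14.12 ± 1.07. The probes were at 15.22 and 15.19 without WAT replicate 3, and the second was at 13.46 without WAT replicate 2.

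Toward WAT, the 10 included Plin1, Adipoq and Lep, and their order is not read where liver was not above background. Slc7a10, an amino acid exchanger of adipocytes, stood at 4.73, 4.21, 4.70, 4.73 and 4.70 in WAT and was at least 1041-fold higher there. Aoc3, an amine oxidase of fat cells and vessels, stood at 5.49, 4.74, 5.44, 5.47 and 5.50 in WAT and was at least 1708-fold higher. Glb1l2 was at least 1099-fold higher, Slc36a2, an amino acid transporter, at least 805-fold, Lctl at least 661-fold and 2310079P10Rik at least 643-fold. None of these 6 was well above background on any liver array, and the 10th was Sncg. WAT replicate 2 was the lowest fat array for Slc7a10, Aoc3 and Glb1l2.

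The same tissue difference was read on the 10 arrays of sg/sg mice, where tissue and scanner coincide in the same way. Of 21338 features tested 74.6% passed, 6.60% were at least 8-fold higher in liver and 6.94% at least 8-fold higher in WAT. Of the 3233 large differences in wild-type mice, 3167 were tested in sg/sg mice, 3153 had the same direction and 2481 were at least 8-fold and passed there too. All 138 of the named genes with a large difference kept their direction. Genes singled out after their values were seen, for an sg/sg value several log2 units away, were Mmp12 at -2.82 and Cidec at -9.17, against -7.77 and -5.50 in wild-type mice, and the difference between genotypes was not tested here.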

How the data were processed

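The deposited scanner files hold 1-colour (Cy3) intensity per spot. The authors' program, Agilent Feature Extraction 9.5 per the submitters' processing notes, subtracted the background and replaced signals not above it by surrogate values, per the file headers. The deposited value table held the same processed intensities, with a maximum relative difference of 0 from the scanner files and column medians of 55.5 to 65.6 (wild-type liver). It is thus linear, uncentred and in the direction of the signal.

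Processed intensity was divided by each array's 75th percentile over 43379 non-control spots and taken as log2. Outlier spots were set missing (41 values). Spots of a probe were averaged, giving 41174 probes. A gene was read by its brightest probe among those well above background on at least 4 of 5 arrays of either tissue. Of the probes 23068 were named by accession through RefSeq GRCm38.p6, 11637 kept the file's name, 7 matched several genes and 6462 had no name. The tissues were compared with limma 3.58.1 in R 4.3.3 (lmFit and eBayes, two-sided, Benjamini-Hochberg over all features, n = 5 per tissue), and the script was tested on simulated data. Same-numbered liver and WAT arrays deviated together by correlations of -0.00911 to 0.112, so numbers were not taken to pair them.

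The rule named 145 genes: the 4 markers, up to 4 members of each of 31 lists with the largest difference toward the list's side past 8-fold and up to 2 past the test toward the other side, every isoenzyme past 8-fold, and the 10 largest differences in each direction. Of these, 5 are not reported here. Further members were named after their values were seen, to account for a count or a known marker. The 31 lists hold 542 genes, of which 534 were on the array and 512 were tested. Members and lists were chosen with earlier results of these data known. Scaling, background, filter, probe choice, slide, replicate number, outlier spots, a minimum change and each array were varied. Motifs of over 9 letters were shortened after a first search of the promoters with longer ones.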

Additional observations from a re-analysis of the deposited data

Results flagged for a closer look

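Of 280 groups of 5 values (140 named genes in 2 tissues), 36 had an end value far from the other 4 by Dixon's test, which chance alone gives in about 1 of 20 groups. They fell on few arrays. On WAT replicate 3 the value was the highest of the fat arrays for 13 hepatocyte genes: Ambp 0.22, Apof -2.74, Baat -5.01, Bhmt -2.62, F12 -3.85, Gls2 -3.18, Inhbc -6.05, Mat1a -3.36, Mbl2 -2.78, Serpina6 -4.30, Slc27a5 -2.85, Ttr -5.29 and Ugt2b5 -4.62 (scaled log2 levels). On WAT replicate 2 it was the lowest for 13 genes, most of them of adipocytes: Aoc3 4.74, Car3 6.09, Glb1l2 4.08, Lep 4.97, Rbp4 5.64, Retn 3.72, Sfrp5 0.59, Slc2a4 2.87, Slc7a10 4.21, Sncg 4.46, Trarg1 3.56, and also Slc2a2 -4.39 and Tnnc2 -2.65. The same array was the highest for Cideb at -4.68, Fbp1 at 1.29 and Vsig4 at -1.66.

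On liver replicate 2 the value was the highest of the liver arrays for Fabp4 at 3.48, Gpnmb at -1.99 and Mmp12 at -4.02, and the lowest for Apob at 6.16 and Foxa3 at 0.68. Liver replicate 3 was the highest for Fabp5 at -4.70 and liver replicate 5 for Hoxa7 at -4.71. None of these values carries its tissue across to the level of the other.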

How the results depend on the processing

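The count of calls was 16549 to 17131 when 1 wild-type array was left out, and the counts at least 8-fold higher were 1440 to 1489 in liver and 1736 to 1797 in WAT. Testing against a minimum change of 2-fold left 8097 calls (7221 in sg/sg mice). Without scaling between arrays the large differences numbered 893 in liver and 3612 in WAT (888 and 3191 in sg/sg mice), and with normexp background correction 819 in WAT (in sg/sg mice 938 in liver, 647 in WAT and 10118 calls). Without the filter on dim probes 2297 were at least 8-fold higher in liver, and with only probes well above background on all 10 arrays 819 in WAT (660 in sg/sg mice), where fewer features were tested. The other causes were not tested. The share of calls higher in liver was 60.2% under median scaling, 46.4% with the percentile taken over bright probes, 47.5% under quantile normalization and 66.8% without the filter. With the replicate block, which pairs arrays by number, 9072 calls were higher in liver and 7566 in WAT, and no sample pairing is claimed. With slide as a random block (correlation 0.03) they were 9226 and 7682. Over 23 alternatives, 3260 of 3268 values of named genes kept their direction and side of the threshold. Genes without a tested probe under a setting, as when all 10 arrays had to be well above background, have no value there and are left out of this share. Car3 reversed under quantile normalization (-0.36) and Hoxd12 without scaling (-0.22), neither passing the test. Also no longer passing were Car3 (0.02) and Fn1 (0.35) without scaling, Ucp1 (-0.22) under normexp, and Car3, Cfp and Hoxd12 against 2-fold. Of 1426 list counts 1381 stayed within 1.5 times. Signal over background limits liver more than WAT, and every tissue difference shares the scanner change.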
